A study of Mus musculus with 7 samples.

Results

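The genes described are the protein genes of the mouse mitochondrial genome whose products sit in the respiratory chain and the ATP synthase. They were taken by name from the platform annotation: ND1, ND2, ND4, ND5, ND6, COX1, COX2, COX3, CYTB and ATP6, the genes also written mt-Nd1, mt-Co1, mt-Cytb and so on. All 10 are represented among the 33604 probe sets of the deposited table, each by 1 probe set. For 8 of them the probe set carries that gene symbol alone. COX2 shares its probe set with Prf1 in the annotation, and ATP6 shares one with Gm10925 and ATP8, so readings of those 2 probe sets are given by their full annotation and are not credited to a single gene.

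Sperm RNA was hybridised to 7 expression arrays, and every array held the pooled sperm of several males, with equal sperm numbers stated for all pools. The C57BL/6 group is 1 array from 5 males, labelled as the control. The TG3 group has 3 arrays of 4 males each, all carrying a KDM1A transgene (a histone lysine demethylase) that heterozygous males had passed to offspring of C57BL/6 females for 3 generations. The nonTG3 group has 3 arrays of 4 males each, littermates of TG3 males that did not inherit the transgene. The construct had been injected into C57BL/6 zygotes, so all groups share that strain background. The sources used here give neither the promoter of the transgene nor the ages of the males. Whether any male contributed sperm to several pools is also not stated. A p-value below therefore reflects the scatter among pools, which may be partly technical, and the C57BL/6 readings have no replicates.

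Mitochondrial DNA is a small circle that is transcribed from both strands into long precursor RNAs, which are cut at the transfer RNAs between the genes to release single messengers. The heavy strand gives nearly all of the messengers, and ND6 is the only respiratory chain gene read from the light strand. In sperm the mitochondria are wrapped around the midpiece of the tail, and the respiratory chain is known there as a source of ATP beside glycolysis. The products join proteins encoded in the nucleus in complexes I, III, IV and V, while complex II is built from nuclear genes alone. No sequence of these genes was printed, since the reference tables used here hold none for the mitochondrial genome.

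The labelled cell type was checked against 19 measured genes of sperm and spermatids. On every array 18 of them lay above the upper quartile of that array's probe sets, and their mean was 9.02 on C57BL/6 and between 8.03 and 8.38 on the other arrays. Among 20 genes of the epididymal epithelium, 9 also lay above the upper quartile of every array. The check therefore does not show that the RNA came from sperm alone. Of the 19, limma called 4 lower in the line (the TG3 and nonTG3 arrays together) than in C57BL/6, where it called 3.02% of all probe sets, and 0 between TG3 and nonTG3, where it called 0% of all probe sets. Values throughout are log2 intensities after RMA, as the authors deposited them, so a difference of 1 is a factor of 2. The upper quartile of all probe sets was between 4.66 and 4.76 on the 7 arrays. Every reading of the 8 singly annotated genes was above it, the lowest being 6.35 for ND2 on nonTG3 replicate 3. Levels of different genes come from different probes and are not ranked against each other.

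The readings of complex I, the NADH dehydrogenase that feeds electrons into the chain, split the arrays into high and low ones. ND1, a core membrane subunit, read 11.01 in C57BL/6, then 8.51, 11.24 and 11.39 in the TG3 pools and 11.37, 9.43 and 8.82 in the nonTG3 pools, each given from replicate 1 to 3. ND2, another core membrane subunit, read 9.89 in C57BL/6, then 6.42, 10.02 and 10.16 in TG3 and 10.27, 7.93 and 6.35 in nonTG3, in the same order of replicates. For both genes TG3 replicate 1 and nonTG3 replicates 2 and 3 were low, the other 4 arrays were high, and the TG3 and nonTG3 readings overlapped. ND4, one of the antiporter-like subunits that pump protons, read 11.79 in C57BL/6, then 9.43, 11.66 and 11.94 in TG3 and 12.04, 10.52 and 9.60 in nonTG3. ND5, the antiporter-like subunit at the far end of the membrane arm, read 11.21 in C57BL/6, then 8.84, 11.38 and 11.46 in TG3 and 11.49, 10.50 and 9.04 in nonTG3. The same 3 arrays were low for ND4 and ND5, with nonTG3 replicate 2 the highest of the 3. ND6, the membrane subunit from the light strand, read 11.22 in C57BL/6, then 9.46, 11.66 and 11.58 in TG3 and 11.50, 11.44 and 9.51 in nonTG3. ND6 was low on TG3 replicate 1 and nonTG3 replicate 3 and lay with the high arrays on nonTG3 replicate 2.

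The genes of complexes III, IV and V had the same low arrays, over narrower ranges for those of complex IV. CYTB, the haem-bearing core of complex III, which passes electrons to cytochrome c, read 11.56 in C57BL/6, then 8.73, 11.67 and 11.85 in TG3 and 11.94, 9.99 and 8.58 in nonTG3. COX1, the catalytic core of complex IV, which reduces oxygen, read 11.71 in C57BL/6, then 11.09, 11.94 and 11.86 in TG3 and 11.89, 11.29 and 11.21 in nonTG3. COX3, a core subunit of complex IV without metal centres, read 11.60 in C57BL/6, then 9.94, 11.62 and 11.81 in TG3 and 11.86, 10.51 and 10.34 in nonTG3. CYTB, COX1 and COX3 were low on TG3 replicate 1 and nonTG3 replicates 2 and 3, and the TG3 and nonTG3 readings overlapped. The probe set annotated to COX2 and Prf1 (COX2 is the subunit of complex IV that takes electrons from cytochrome c) read 12.06 in C57BL/6, then 10.97, 12.21 and 12.33 in TG3 and 12.37, 11.38 and 11.39 in nonTG3. The probe set annotated to ATP6, Gm10925 and ATP8 (ATP6 forms the proton channel of the ATP synthase) read 11.15 in C57BL/6, then 9.37, 11.12 and 11.43 in TG3 and 11.39, 9.99 and 9.74 in nonTG3. Both shared probe sets were low on the same 3 arrays.

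**Figure D1:**
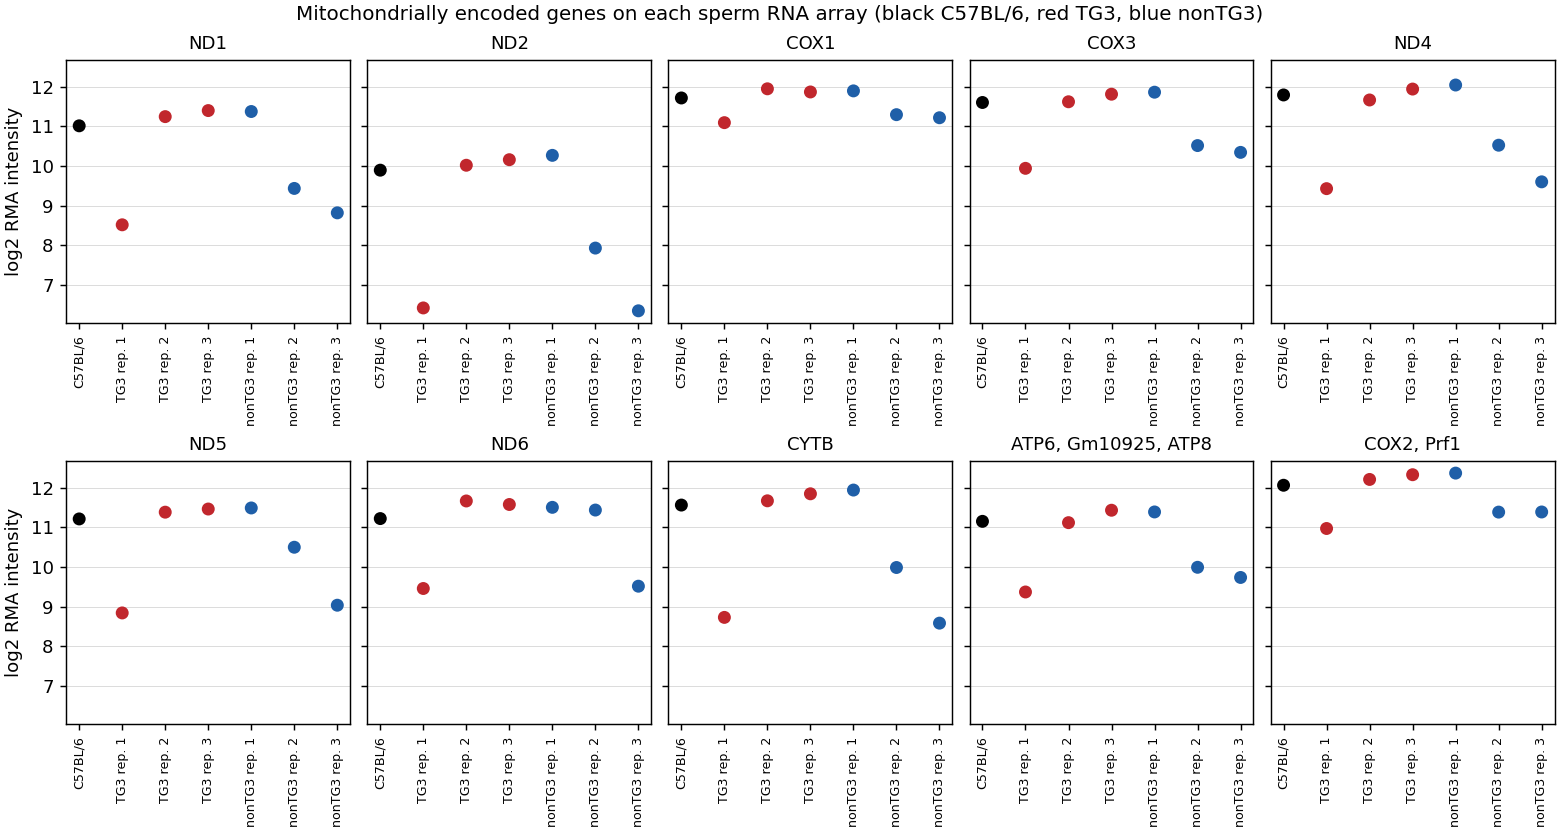
Log2 RMA intensity of the 10 probe sets on each of the 7 arrays, 1 panel a probe set and 1 point an array (black C57BL/6, red TG3, blue nonTG3; no error bars, since single arrays are shown). TG3 replicate 1 and nonTG3 replicate 3 are low in all panels, and nonTG3 replicate 2 is low in all but that of ND6.

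Averaged over the 8 singly annotated genes, the level was 11.25 in the C57BL/6 pool. In the 3 TG3 pools, in order of replicate, it was 9.05, 11.40 and 11.51, and in the nonTG3 pools 11.54, 10.20 and 9.18. TG3 replicates 2 and 3 and nonTG3 replicate 1 were within 0.30 of C57BL/6. TG3 replicate 1 was 4.59-fold, nonTG3 replicate 3 4.20-fold and nonTG3 replicate 2 2.07-fold below it. Each of TG3 and nonTG3 held a high and a low array, and the spread within 1 group could equal that over all arrays: 2.88 of a total of 2.88 for ND1 in TG3, and 3.36 of 3.36 for CYTB in nonTG3. In these pools, fewer mitochondria or fewer cells that carry them cannot be told apart from less mitochondrial RNA in each.

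The size of the deficit on the low arrays differed from gene to gene. On TG3 replicate 1 the log2 difference from C57BL/6 was -3.47 for ND2 and -0.62 for COX1. The 5 complex I genes averaged -2.49 relative to C57BL/6 on that array, CYTB stood at -2.83, and COX1 and COX3 averaged -1.14. On nonTG3 replicate 3 these values were -2.36, -2.98 and -0.88. TG3 replicate 1 and nonTG3 replicate 3 gave a like order of genes, although they belong to different groups, and the widest gap between those 2 arrays among the 8 genes was that of COX3 (-0.40, TG3 replicate 1 minus nonTG3 replicate 3).

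nonTG3 replicate 2 had another profile. Relative to C57BL/6, the 7 genes of the heavy strand lay between -1.96 (ND2) and -0.42 (COX1) on it, whereas ND6 stood at 0.22. The excess of ND6 over the mean of the other 7 genes, both relative to C57BL/6, was 1.44 on nonTG3 replicate 2 and between -0.014 and 0.50 on the other 5 arrays. Between nonTG3 replicates 2 and 3 ND6 differed by 1.92, ND5, its neighbour on the map, by 1.46, and CYTB, its neighbour on the other side, by 1.40. COX1 and COX3 differed by only 0.078 and 0.17 between the same arrays. This profile comes from 1 array and has no replicate.

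**Figure D2:**
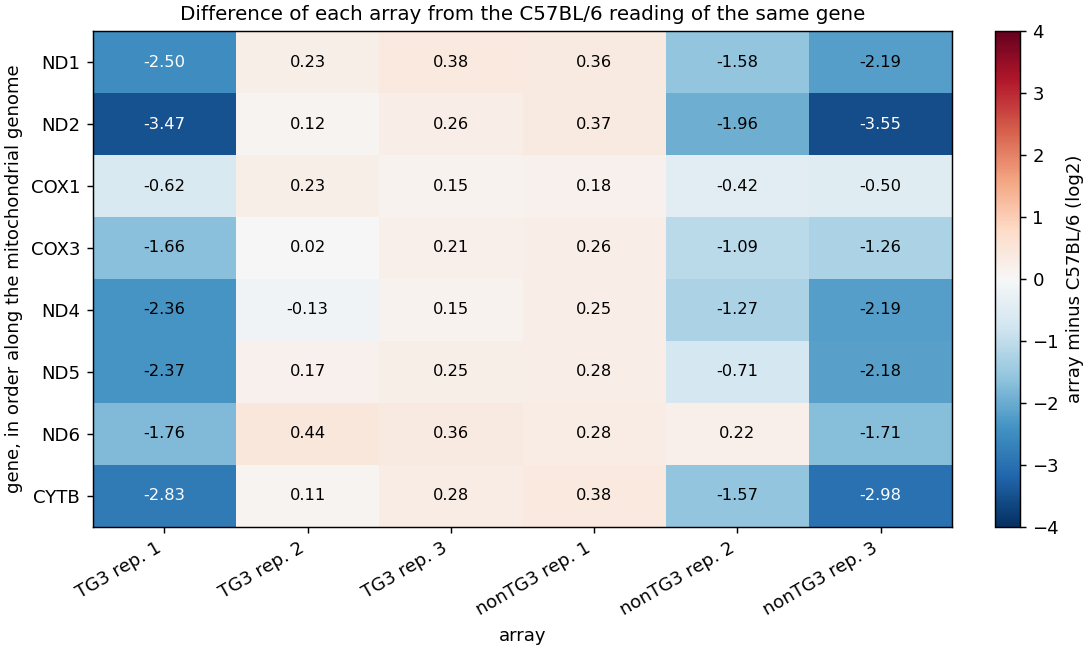
Log2 difference between each TG3 or nonTG3 array (columns) and the C57BL/6 array for the 8 singly annotated genes (rows, in their order along the mitochondrial genome). TG3 replicate 1 and nonTG3 replicate 3 are below 0 for all genes, and on nonTG3 replicate 2 ND6 alone is above 0, at 0.22.

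Most of these genes varied more over the arrays than nearly all other probe sets. The median range (highest minus lowest of the 7 arrays) was 0.66 over the 23493 probe sets with a single gene symbol. The range was 3.92 for ND2, 3.36 for CYTB, 2.88 for ND1, 2.65 for ND5, 2.61 for ND4, 2.21 for ND6 and 1.92 for COX3. A larger range was found for 0.0894% of probe sets in the case of ND2 and for 3.32% in the case of COX3. COX1 was an exception with a range of 0.85, which 33.2% of probe sets exceeded. Among the 224 probe sets as bright on average as ND2 or brighter, the median range was 1.06. Of these 224, 2 had a larger range than ND2, 15 a larger range than ND6, 23 a larger range than COX3 and 149 a larger range than COX1. All these shares and counts include the mitochondrially encoded genes themselves. The 2 above ND2 were ND3 (4.04) and ND4L (3.95), mitochondrially encoded genes outside the listed 10. These shares and counts describe the arrays and are not tests.

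**Figure D3:**
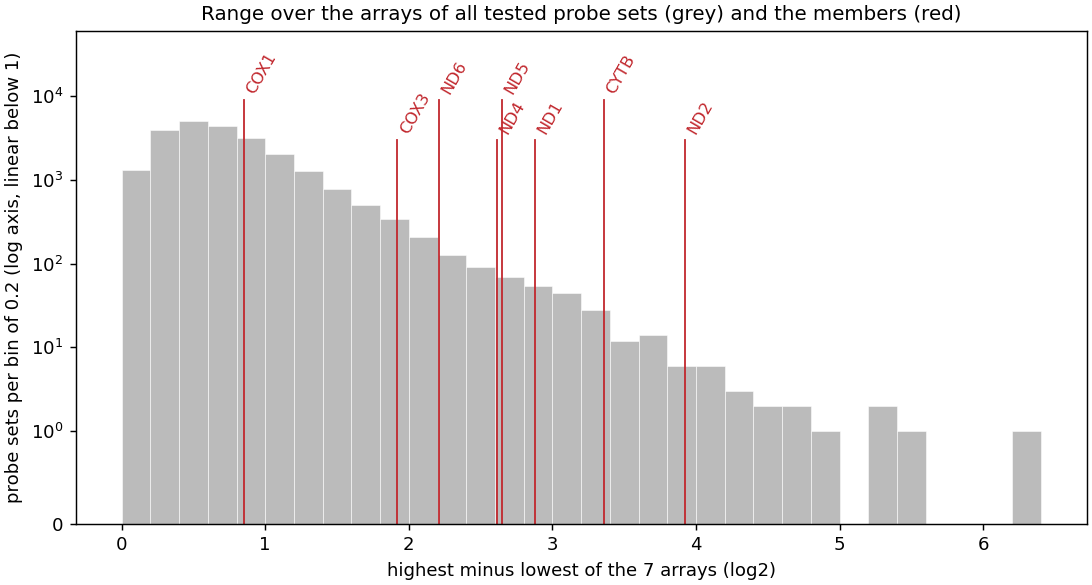
Number of probe sets (vertical axis, logarithmic above 1) by range over the 7 arrays in log2 units (horizontal axis, bins of 0.2) for all 23493 tested probe sets in grey, with red lines at the ranges of the 8 genes. Only COX1, at 0.85, lies near the bulk, whose median is 0.66.

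A further 2 mitochondrially encoded genes outside the listed 10 had probe sets of their own. ND3, a small membrane subunit of complex I, read 11.91 in C57BL/6, then 8.51, 12.17 and 12.15 in TG3 and 12.12, 9.32 and 8.12 in nonTG3. ND4L, another small membrane subunit of complex I, read 10.54 in C57BL/6, then 7.12, 11.06 and 10.89 in TG3 and 10.98, 8.85 and 7.51 in nonTG3. Both were low on TG3 replicate 1 and nonTG3 replicates 2 and 3, with ranges of 4.04 and 3.95. None of the 24 mitochondrial ribosomal and transfer RNA genes of the RefSeq table was annotated to a probe set, so they are not described.

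The comparison of TG3 with nonTG3 asks whether carrying the transgene goes with another level of these RNAs among littermates. All 8 genes averaged higher in TG3, but by less than the spread between pools. For ND2 the TG3 mean was 8.86 ± 2.12 (SD, n = 3) and the nonTG3 mean 8.18 ± 1.97 (SD, n = 3), a difference of 0.68 with a 95% confidence interval of -2.82 to 4.18 (limma adjusted p = 0.948). For COX1 the TG3 mean was 11.63 ± 0.47 (SD, n = 3) and the nonTG3 mean 11.47 ± 0.37 (SD, n = 3), a difference of 0.17 with an interval of -0.58 to 0.91 (limma adjusted p = 0.941). ND6 had the smallest difference, 0.081 with an interval of -1.96 to 2.12 (limma adjusted p = 0.998). The median difference of the 8 genes was 0.26, against 0.0045 over all probe sets tested.

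limma called 0 of the 8 genes, where 0% of all 23493 probe sets were called, and no gene of the 8 had an unadjusted p under 0.05, against 559 of all probe sets. The smallest unadjusted p of the 8 was 0.598. In 0 of the 8 genes were the TG3 and nonTG3 arrays separate, against 4.12% of all probe sets. The intervals for all genes but COX1 reach beyond 1 log2 unit on both sides of 0, so a difference of a factor of 2 in either direction could not be told from none for these 7 genes. The direction depended on which arrays were in the fit. Without nonTG3 replicate 3, 7 of the 8 differences turned negative, between -0.57 (ND6) and -0.018 (ND1), and COX1 stood at 0.041. Without TG3 replicate 2 or TG3 replicate 3, 4 of 8 were negative in each case, with medians of -0.0097 and -0.060. Without TG3 replicate 1 the median of the 8 differences was 1.08, and without nonTG3 replicate 1 it was 0.87. Without both TG3 replicate 1 and nonTG3 replicate 3 all 8 differences were above 0, with a median of 0.52. After a repeated quantile normalization COX3 and ND6 were lower in TG3, at -0.0021 and -0.083. None of these fits called any of the 8 genes, and none called any of the 23493 probe sets.

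**Figure D4:**
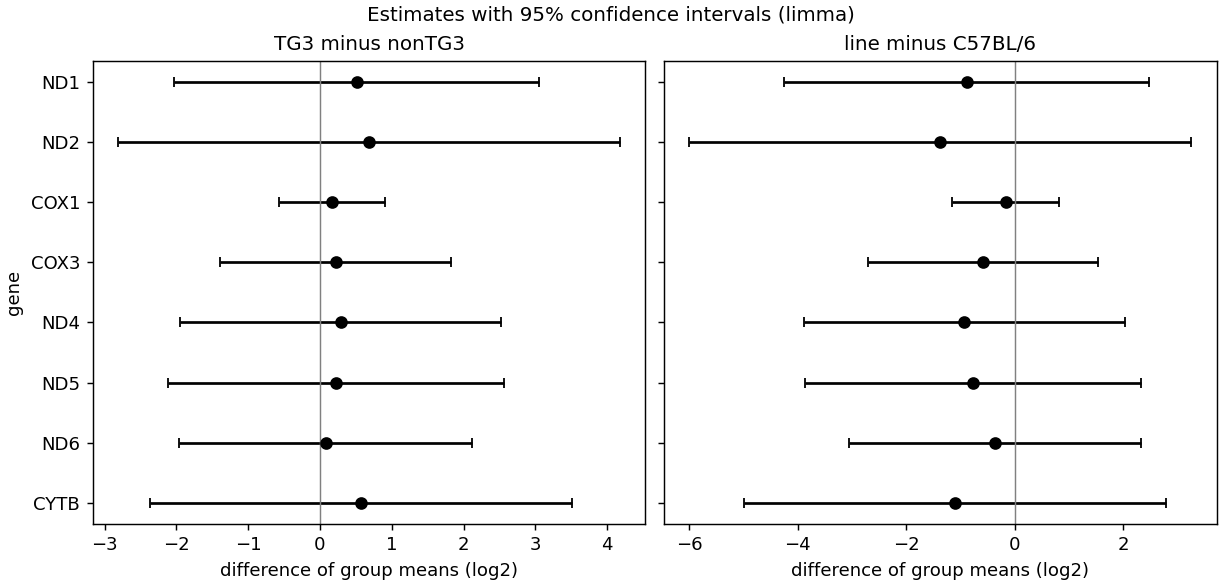
Difference of group means in log2 units (horizontal axes) for the 8 genes, as points with 95% confidence intervals from limma, for TG3 minus nonTG3 (left) and the 6 arrays of the line minus C57BL/6 (right; the horizontal scales differ). Every interval includes 0, and those of COX1 are the narrowest, from -0.58 to 0.91 on the left.

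The comparison with the outside C57BL/6 pool asks whether males of the line, with or without the transgene, differ from the strain it was made in. The mean of the 6 arrays of the line lay below the C57BL/6 reading for all 8 genes. For ND2 the C57BL/6 reading was 9.89 and the mean of the line 8.52 ± 1.87 (SD, n = 6), a difference of -1.37 with an interval of -6.00 to 3.26 (limma adjusted p = 1). CYTB differed by -1.10, with an interval of -4.99 to 2.79, and COX1 by -0.16, with an interval of -1.15 to 0.82, both at a limma adjusted p of 1. The median difference was -0.82, against 0.037 over all probe sets. Of the 8 genes limma called 0, where it called 3.02% of all 23493 probe sets, and 0 had an unadjusted p under 0.05, against 2877 of all probe sets.

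In none of the 8 genes did all 6 arrays of the line fall on the same side of C57BL/6, as they did for 32.4% of probe sets. TG3 replicate 1 and nonTG3 replicate 3 were also left out together, a choice made from the readings of these genes. The median difference was then -0.15, with ND6 at 0.32 and COX1 at 0.035. That fit called 0 of the 8 genes and also 0 of all 23493 probe sets. Without TG3 replicate 1 alone the median was -0.37, and without nonTG3 replicate 3 alone it was -0.53. Taken separately, with the C57BL/6 array shared by both comparisons, the median difference was -0.64 for TG3 and -0.97 for nonTG3, and limma called 0 of the 8 genes in each, against 2.53% of all probe sets in each. Without TG3 replicate 1 all 8 differences of TG3 from C57BL/6 were above 0, from 0.011 (ND4) to 0.40 (ND6). Without nonTG3 replicate 3 the median difference of nonTG3 was -0.46 and ND6 stood at 0.25, and without nonTG3 replicate 1 the median was -1.59.

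The nuclear-encoded partners in the same complexes were lowest on another array. The 76 measured nuclear subunits of complexes I to V averaged 5.94 in the C57BL/6 pool. Their means in the TG3 pools, in order of replicate, were 5.68, 5.65 and 5.60, and those in the nonTG3 pools 5.65, 5.07 and 5.34. On TG3 replicate 1, where the mitochondrially encoded genes were at their lowest mean, the nuclear subunits had their highest mean among the 6 arrays of the line. On nonTG3 replicate 2 the nuclear subunits were lowest, with 46 of 76 genes at their lowest reading there, against 12.5% of all probe sets tested and 0 of the 8 mitochondrially encoded genes. Relative to C57BL/6, the nuclear subunits were at -0.26 and the mitochondrially encoded genes at -2.20 on TG3 replicate 1, against -0.87 and -1.05 on nonTG3 replicate 2. On nonTG3 replicate 3 they were at -0.61 and -2.07, both lower than on TG3 replicates 2 and 3 and nonTG3 replicate 1.

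The array with the lowest mean was the same in each complex. The means of the nuclear subunits relative to C57BL/6 on TG3 replicate 1 were -0.27 for 32 genes of complex I, -0.19 for 4 of complex II, -0.011 for 8 of complex III, -0.51 for 16 of complex IV and -0.15 for 16 of complex V. On nonTG3 replicate 2 they were -0.87, -0.55, -0.72, -1.15 and -0.76, and on nonTG3 replicate 3 -0.57, -0.35, -0.51, -0.89 and -0.52. For each of the 5 complexes nonTG3 replicate 2 had the lowest list mean of the 7 arrays.

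Between TG3 and nonTG3 limma called 0 of the 76 nuclear subunits, where it called 0% of all probe sets. The median difference was 0.30, against 0.0045 over all probe sets, and 64 of 76 were higher in TG3. This lean was not particular to them, with 52 of 71 mitochondrial ribosomal proteins and 17 of 20 epididymal genes higher in TG3. Other lists leaned the other way, with 4 of 16 spermatogonia genes and 4 of 15 meiotic genes higher. On nonTG3 replicate 2 alone, 46 of the 76 nuclear subunits had their lowest reading, and how far their direction rests on that array was not tested. The smallest p belonged to Cyc1, the cytochrome c1 of complex III, which read 5.28, 5.27 and 5.35 in TG3 and 5.10, 4.74 and 4.80 in nonTG3 (limma adjusted p = 0.923). The 3 TG3 readings of Cyc1 were all above the nonTG3 readings, which follows largely from choosing it by its p. TG3 and nonTG3 arrays did not overlap in either direction for 4.12% of all probe sets. Between the line and C57BL/6, 3 of 76 nuclear subunits (3.95%) were lower, near the 3.02% of all probe sets. They were Cox6b2 and Cox7b2, testis forms of complex IV subunits, and Ndufb8 of complex I. For Cox6b2 the line averaged 7.16 ± 0.07 (SD, n = 6), against 9.30 on the C57BL/6 array (limma adjusted p = 0.00218), and each of the 6 arrays was below C57BL/6. Ndufb8 read 5.42 against 4.87 ± 0.04 (SD, n = 6; limma adjusted p = 0.0395) and lost its call whichever of the 6 arrays was omitted, with an adjusted p of up to 0.0869 without nonTG3 replicate 2. Cyct, the testis form of cytochrome c, was also lower in the line, at 5.30 against 2.11 to 2.92 (limma adjusted p = 0.0120, and 0.0541 without nonTG3 replicate 2). Cox7b2 read 7.33 in C57BL/6 and 2.53 to 3.45 in the line (limma adjusted p = 0.00535). Readings as low as those of Cyct and Cox7b2 in the line lie below the median of each array, and whether they lie above background was not measured.

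Genes for the upkeep of mitochondrial RNA and DNA had nearly level means over the arrays. Some of the readings were dim, with 10 of 31 and 1 of 14 genes of these lists below the median of every array. The 31 genes of mitochondrial transcription, RNA processing and decay had means between 3.76 and 3.89 on all 7 arrays, and 14 genes of mitochondrial DNA replication and upkeep had means between 4.18 and 4.40. limma called 0 genes of either list for TG3 minus nonTG3, where it called 0% of all probe sets, with medians of -0.017 and 0.054. It also called 0 genes of either list for the line minus C57BL/6, where it called 3.02%, with medians of 0.0033 and 0.11. For the transcription list the means of the line were below C57BL/6 on all 6 arrays, by at most 0.13, although its median was just above 0. The 71 mitochondrial ribosomal proteins averaged 4.57 on C57BL/6 and between 4.20 (nonTG3 replicate 2) and 4.49 (TG3 replicate 1) in the line. Of these 71, limma called 0 between TG3 and nonTG3 (median 0.12) and only Mrpl39 lower in the line (median -0.057), where 3.02% of all probe sets were called. Mrpl39 read 6.68 against 4.95 ± 0.30 (SD, n = 6; limma adjusted p = 0.0393) and lost its call in 5 of the 6 fits without 1 array, holding it only without TG3 replicate 3, with an adjusted p of up to 0.118 without nonTG3 replicate 3. Of 23 translocases of the outer and inner membrane, 0 were called between TG3 and nonTG3 (median 0.13) and 2, Timm8b and Tomm20l, were lower in the line (median -0.027), again against 3.02% of all probe sets called. Tomm20l read 5.18 in C57BL/6 and 4.05 to 4.22 in the line (limma adjusted p = 0.0128), and Timm8b read 7.77 against 5.16 to 6.25 (limma adjusted p = 0.0308, and over 0.05 in 5 of the 6 fits without 1 array, up to 0.0891 without TG3 replicate 2).

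**Figure D5:**
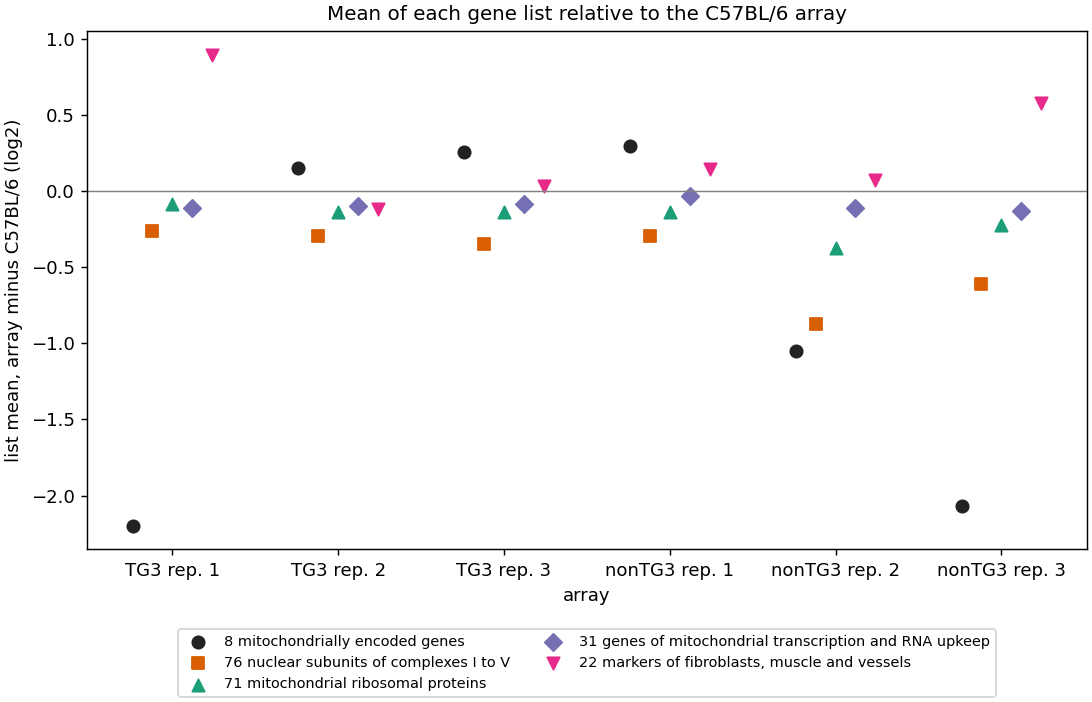
Mean log2 difference from the C57BL/6 array (vertical axis) of 5 gene lists on each array of the line (horizontal axis; 1 point a list and array, no error bars). The mitochondrially encoded genes stand at -2.20 on TG3 replicate 1 and -2.07 on nonTG3 replicate 3, whereas the nuclear subunits are lowest on nonTG3 replicate 2, at -0.87.

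Markers of other cells differed to varied degrees on the 2 arrays with the lowest means of the mitochondrially encoded genes. Of 22 markers of fibroblasts, muscle and vessels, 16 read higher on both TG3 replicate 1 and nonTG3 replicate 3 than on each of the other 5 arrays, against 12.2% of all probe sets, a pair of arrays picked from the mitochondrial readings. Their mean was 4.62 on C57BL/6, between 4.51 and 5.52 over the TG3 arrays and between 4.70 and 5.20 over the nonTG3 arrays, and 2 of the 22 lay below the median of every array. On nonTG3 replicate 2, also low for most mitochondrially encoded genes, the mean of the 22 was 0.074 above C57BL/6. It was 0.15 above C57BL/6 on nonTG3 replicate 1, where those genes were high. Acta2, the smooth muscle actin, a marker chosen after its values were seen, read 6.28 in C57BL/6, then 8.47, 6.15 and 6.33 in TG3 and 7.05, 6.15 and 7.33 in nonTG3. The part of these cells in the mitochondrial readings was not tested.

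The corresponding counts were 5 of 16 for spermatogonia, 4 of 15 for meiotic germ cells, 2 of 19 for sperm and spermatids, 2 of 21 for leukocytes, 2 of 20 for epididymal epithelium, 1 of 17 for Sertoli and Leydig cells, 0 of 8 for fat cells and 0 of 2 for red blood cells. Lower on both of those arrays than on the other 5, as the 8 mitochondrially encoded genes were, read 4 of 20 epididymal genes and 1 of 2 red blood cell genes, against 8.13% of all probe sets, and 0 genes of the other 7 lists of cell markers. Genes of the epididymal epithelium had means of 5.32 to 5.46 in TG3 and 4.84 to 5.54 in nonTG3, with 4.99 on C57BL/6. Leukocyte genes had means of 3.82 to 4.10 in TG3 and 3.58 to 3.92 in nonTG3, with 3.73 on C57BL/6. The lists of Sertoli and Leydig cells and of meiotic germ cells were lower on average in the line than in C57BL/6, through some of their genes. The list of spermatogonia was not lower on every array, with a mean of 4.06 on C57BL/6 and 3.84 to 4.15 in the line. Of its 16 genes limma called 0, where it called 3.02% of all probe sets, 8 were above 0 and the median difference was -0.0055. The mean of the Sertoli and Leydig genes was 4.17 on C57BL/6 and 3.06 to 3.26 on the 6 arrays of the line, with 5 of 17 called lower, against 3.02% of all probe sets called, 7 of 17 above 0 and a median difference of -0.20. The mean of the meiotic genes was 5.58 on C57BL/6 and 4.41 to 4.99 in the line. Of these genes 4 of 15 were called lower, again against 3.02% of all probe sets, with 5 of 15 above 0 and a median difference of -0.45. The part of these cells in that comparison was not tested.

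The genes with the profile most like that of the mean of the 8 were found by the root mean square difference between profiles over the 7 arrays, each centred on its own mean. On this measure the 8 genes themselves lay between 0.089 (ND4) and 0.71 (COX1) from their mean, and a probe set flat on all arrays would lie at 1.02. Of 23483 other probe sets, 419 (1.78%) lay nearer than COX1. The 5 nearest were Ints6l (0.25), Malat1 (0.31), Pax8 (0.33), Hoxb4 (0.36) and Tuba1c (0.36). Malat1, a long noncoding RNA kept in the nucleus, read 10.69 in C57BL/6, then 8.57, 10.83 and 10.81 in TG3 and 11.02, 10.38 and 9.23 in nonTG3. Tuba1c, an alpha tubulin, read 7.42 in C57BL/6, then 6.24, 8.26 and 7.91 in TG3 and 7.80, 6.81 and 6.17 in nonTG3. Both were lowest on TG3 replicate 1 and nonTG3 replicate 3.

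The 5 probe sets nearest to the sign-turned profile were Snord1b (0.33), Syne1 (0.42 and, for another probe set, 0.44), Myh11 (0.43) and Snord35a (0.46). Myh11, the smooth muscle myosin heavy chain and a marker in the list above, read 4.65 in C57BL/6, then 6.54, 4.56 and 4.70 in TG3 and 5.15, 5.33 and 6.14 in nonTG3. Snord35a, a small nucleolar RNA that guides ribosomal RNA methylation, read 6.04 in C57BL/6, then 7.54, 6.06 and 5.53 in TG3 and 6.39, 6.96 and 7.29 in nonTG3. Both were highest on TG3 replicate 1 and nonTG3 replicate 3. These genes were chosen for their profile, so their likeness is a description without a test.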

How the data were processed

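The values are log2 intensities that the authors made with RMA and deposited; the submitters' processing notes name R 3.1.0, oligo, RMA and limma. Build, annotation and filters of that processing were not stated. Gene symbols came from the platform annotation: 23493 probe sets had 1 symbol and were tested, 1801 had several and 8310 none. A limma 3.58.1 model (R 4.3.3) with 1 mean for each group took in all 7 arrays, with eBayes (4 residual and 1.65 prior degrees of freedom) and Benjamini-Hochberg adjustment over the 23493. Calls are adjusted p-values under 0.05. C57BL/6 has 1 array, so its spread is taken to be that of the other groups.

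Members, gene lists, alternatives and naming rules were chosen with earlier results of these data known. Named were all members and at most 4 genes of each list with the smallest p in the comparison described. Also named were 5 genes with the most like and 5 with the most opposite profile, leaving out mitochondrial, predicted and clone names. Acta2 fell outside these rules and was named after its values were seen. Where a listed gene had several probe sets, the brightest on average stood for it. Alternatives were other normalizations, eBayes settings, filters, sets of arrays and single arrays left out. The steps were tested on simulated data. The number of arrays limits the precision. Figures were drawn with matplotlib 3.10.9.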

Additional observations from a re-analysis of the deposited data

How the results depend on the processing

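Under every alternative run, limma called 0 of the 8 genes in all 4 comparisons. The number of all probe sets called for TG3 minus nonTG3 was 0 in every fit. For the line minus C57BL/6 it was 710, and 350 to 496 in the fits without 1 array. For TG3 minus C57BL/6 it was 595, and 272 to 333 without 1 array, and for nonTG3 minus C57BL/6 it was 594, and 228 to 397 without 1 array. It was 0 in the comparisons with C57BL/6 without TG3 replicate 1 and nonTG3 replicate 3 together, which leaves 2 residual degrees of freedom, 0 for TG3 minus C57BL/6 when the nonTG3 arrays were not fitted, and 54 for nonTG3 minus C57BL/6 when the TG3 arrays were not fitted.

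For TG3 minus nonTG3, the fits without 1 array ran from -0.018 to 1.45 for ND1, -0.23 to 1.91 for ND2, 0.012 to 0.44 for COX1, -0.13 to 0.81 for COX3, -0.27 to 1.08 for ND4, -0.43 to 1.08 for ND5, -0.57 to 0.80 for ND6 and -0.22 to 1.59 for CYTB. Repeated quantile normalization gave -0.0021 for COX3 and -0.083 for ND6. For TG3 minus C57BL/6 the fits without 1 array ran from -1.13 to 0.31 for ND1, -1.68 to 0.19 for ND2, -0.24 to 0.19 for COX1, -0.82 to 0.11 for COX3, -1.24 to 0.011 for ND4, -1.10 to 0.21 for ND5, -0.70 to 0.40 for ND6 and -1.36 to 0.20 for CYTB. For nonTG3 minus C57BL/6 ND6 ran from -0.75 to 0.25. Without TG3 replicate 1 and nonTG3 replicate 3 together, TG3 minus C57BL/6 took the upper value of each of those 8 ranges, nonTG3 minus C57BL/6 gave 0.25 for ND6, and the line minus C57BL/6 gave 0.035 for COX1 and 0.32 for ND6. The 7 nuclear genes named as lower in the line had adjusted p-values of 0.0653 to 0.238 in that fit.

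The range of the mean of the 8 genes over the arrays was 2.49, and 2.34 to 3.37 over its alternatives, of which the inclusion of the shared probe sets and the exclusion of ND6 were added after seeing the data. The range of COX1 was 0.85, and 0.51 to 1.81 over the 3 other normalizations, with 1.81 after cyclic loess. Deviations of TG3 and nonTG3 arrays with the same replicate number from their group means correlated across probe sets at -0.45, 0.016 and -0.40. Of the pairs with different numbers, TG3 replicate 1 and nonTG3 replicate 3 had the highest correlation, at 0.55. These correlations cannot show whether same-numbered pools were collected or processed together. With the replicate block the difference for ND2 was 0.68 at a limma adjusted p of 0.995, and 0 probe sets were called.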
